A study of Mus musculus with 6 samples.

Results

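Syndecans and glypicans are the 2 families of cell surface proteoglycans that carry heparan sulfate, and the mouse genome encodes 4 syndecans (Sdc1, Sdc2, Sdc3 and Sdc4) and 6 glypicans (Gpc1, Gpc2, Gpc3, Gpc4, Gpc5 and Gpc6). The 10 genes, all members of the 2 families, were taken by name from the 31245 genes of the deposited expression table. They were chosen with earlier results of these data known. Their transcripts were measured in cortical primary neuronal cultures by poly(A)-selected RNA sequencing, in 3 libraries from cultures given NGPF2 at 1.5 ng/ml and 3 libraries from cultures given the vehicle, PBS, each for 2 h. The cultures came from the cortices of postnatal day 1 mouse pups and were treated after 12 to 13 days in vitro in Neurobasal A medium with B27 and GlutaMax. Neither the strain nor the sex of the pups is given in the sources used here.

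The libraries form 3 pairs of an NGPF2 and a vehicle culture, described as 3 independent experiments. The library names of replicates 2 and 3 share a stem in both groups, and those of replicate 1 lack it, so the libraries also fall into 2 sets by name. Whether the sets differ by culture, preparation or sequencing run is not given, and these cannot be told apart. Each gene is therefore described over the 3 pairs, within replicates 2 and 3, and for the difference between the 2 sets.

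Syndecans are transmembrane proteins with a variable extracellular part and a short, conserved cytoplasmic tail that ends in a PDZ-binding motif. Glypicans are globular proteins held on the outer membrane by a lipid anchor, with their heparan sulfate chains close to the cell surface. Through these chains both families bind growth factors, morphogens and adhesion receptors. In the cortex Sdc3 is known as the main neuronal syndecan and Gpc1 as a neuronal glypican, whereas Gpc4 and Gpc6 are known as astrocyte-secreted factors that recruit AMPA receptors to developing synapses. Sdc4 is known from focal adhesions.

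The last 60 coding bases of the 4 syndecan transcripts are shown because they carry what makes these genes a family. They are read 5′ to 3′ from the GENCODE M21 transcripts of mm10, with the last 4 codons and the stop codon, which encode the PDZ-binding end, in capitals.
Sdc1: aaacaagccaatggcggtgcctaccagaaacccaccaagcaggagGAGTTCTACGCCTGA
Sdc2: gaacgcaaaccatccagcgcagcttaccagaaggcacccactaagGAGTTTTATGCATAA
Sdc3: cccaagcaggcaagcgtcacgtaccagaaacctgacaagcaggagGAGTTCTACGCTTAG
Sdc4: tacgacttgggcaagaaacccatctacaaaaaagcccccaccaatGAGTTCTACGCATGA
Bases were compared position by position from the end, with no gaps allowed. The capital 15 bases were 73.33% to 93.33% identical between any 2 syndecans, with Sdc1 and Sdc4 the most alike pair. The whole 60 bases were 36.67% to 63.33% identical, with Sdc1 and Sdc3 the most alike pair. The longest exact stretch shared by the transcripts of any 2 of the 10 genes was 29 bases, between Sdc3 and Sdc4.

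The 6 libraries held 17478070 to 45193691 reads assigned to genes, and replicate 1 was the deepest in both groups. The values below are normalized counts, that is reads divided by a size factor per library. All 10 genes passed the minimum mean of 10 normalized counts, as did 16653 of the 31245 genes. Neuronal markers were high in all 6 libraries: the 8 pan-neuronal markers summed to 175237, 247656 and 239022 in NGPF2 replicates 1, 2 and 3, and to 176149, 195546 and 192948 in vehicle replicates 1, 2 and 3. Glial and other non-neuronal transcripts were also present, and their summed levels differed between libraries. The 14 astrocyte markers summed to 31248, 19533 and 16255 in the NGPF2 cultures and to 27690, 75180 and 67348 in the vehicle cultures. In bulk RNA, fewer cells of a type and less RNA per cell cannot be told apart.

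Sdc3 was the most abundant transcript of the 10 genes in every library when levels were divided by exon length. It averaged 2620 ± 218 normalized counts per kb of merged exon over the 6 libraries (SD, n = 6). Gpc1 followed with 730 ± 68.3 and Gpc4 with 464 ± 111 normalized counts per kb. These 3 genes held ranks 1, 2 and 3 in all 6 libraries. Sdc2 averaged 308 ± 90.4, Sdc4 213 ± 156 and Gpc5 108 ± 29.8 normalized counts per kb. The 4 lowest genes were Gpc3 with 52.6 ± 35.7, Gpc6 with 46.0 ± 17.5, Sdc1 with 27.2 ± 14.0 and Gpc2 with 26.6 ± 18.3 normalized counts per kb. In this order, Sdc2 and Sdc4, Sdc4 and Gpc5, Gpc3 and Gpc6, and Sdc1 and Gpc2 were neighbours whose means differed by less than the larger of their SDs. The other neighbours differed by more than that. With the longest transcript as length, Gpc3 had 63.8 and Gpc6 71.2 normalized counts per kb, so their order turned round, and Gpc5 had 169.

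**Figure D1:**
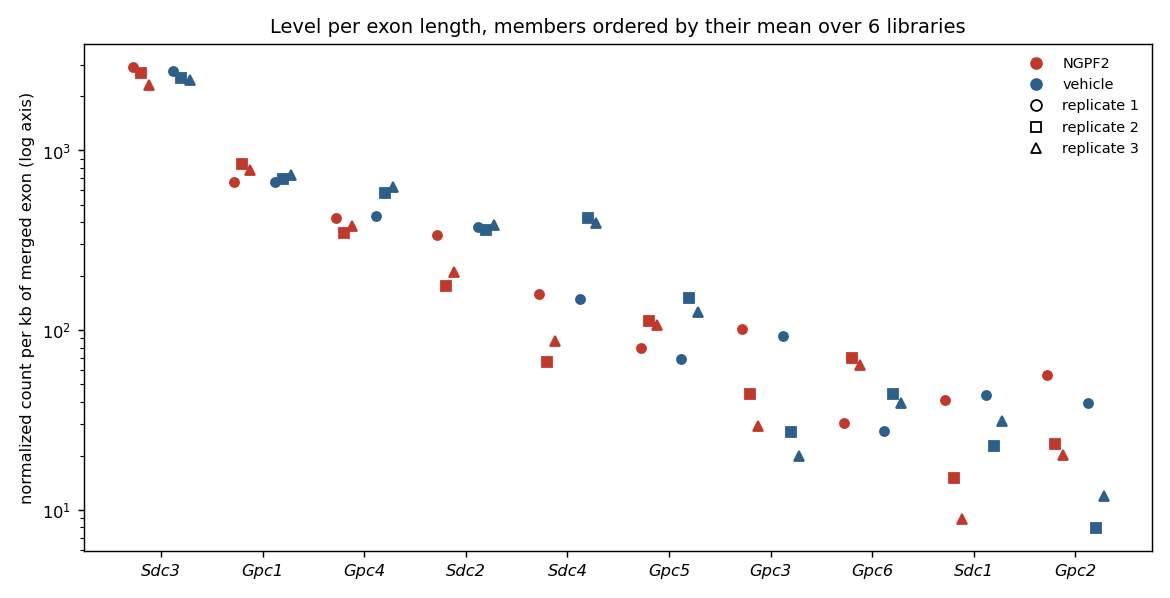
Level of each syndecan and glypican per library, in normalized counts per kb of merged exon on a log axis, with genes ordered by their mean over 6 libraries, red for NGPF2, blue for vehicle and a marker shape per replicate. Sdc3, Gpc1 and Gpc4 hold the first 3 places in every library, and the spread within a gene is widest for Sdc4, Gpc2, Gpc3 and Sdc1.

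No member passed the test between NGPF2 and vehicle cultures over the 3 pairs. The limma fit with the pair as a block called 0 of the 16653 genes (0%) and 0 of the 10 members at an adjusted p of 0.05. At an unadjusted p under 0.05 it found 2166 genes (13.0%), among them 5 members, and limma's voom fit on the recovered counts found 1315 genes. Within replicates 2 and 3, 4 of the 10 members passed, against 21.1% of all genes tested. Sdc4, Sdc2 and Gpc4 fell there and Gpc6 rose. Of all genes, 1627 rose and 1884 fell in that comparison, and 982 rose and 2665 fell when libraries were scaled to their totals, which lowered the median of all genes by 0.13 on the log2 scale. With no filter on low values the adjusted p was 0.0820 for Sdc2, 0.0706 for Gpc4 and 0.0868 for Gpc6, and with no variance trend it was 0.0568 for Gpc6. In pair 1, 9 of the 10 members lay within 0.2 of no change on the log2 scale, and the largest difference, of Gpc2, was 0.51. Over all 16653 genes the SD of the log2 differences in pair 1 was 0.431, and the share within 0.2 was not computed.

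**Figure D2:**
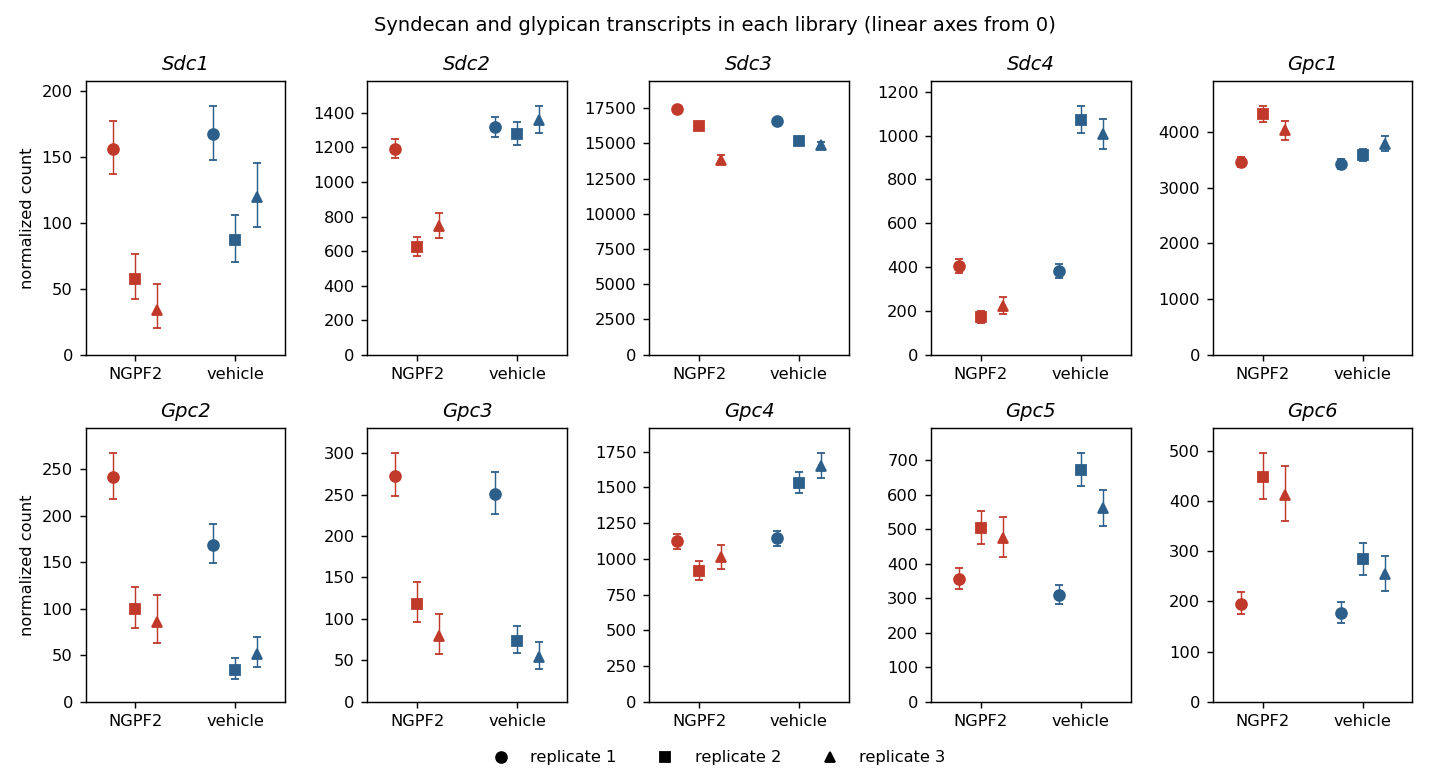
Normalized counts of each gene in the 3 NGPF2 libraries (red, left) and the 3 vehicle libraries (blue, right), on linear axes that start at 0, with a marker shape per replicate and bars for the 95% Poisson interval of the reads, which covers counting error only. Sdc4, Sdc2 and Gpc4 lie lower, and Gpc6 higher, in NGPF2 than in vehicle replicates 2 and 3, while replicate 1 of the 2 groups lies close together.

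Sdc4 (ENSMUSG00000017009, chr2:164424247-164443887, minus strand) had the largest difference of the 10 genes. Its normalized count was 404, 170 and 223 in NGPF2 replicates 1, 2 and 3, against 380, 1074 and 1008 in vehicle replicates 1, 2 and 3. The 2 cultures of pair 1 were nearly equal, whereas vehicle replicates 2 and 3 stood above all other libraries, and the groups overlapped over the 3 pairs. Within replicates 2 and 3, Sdc4 was 5.31-fold lower with NGPF2, a log2 difference of -2.41 ± 0.16 (SE, limma adjusted p = 0.00222, 2 libraries per group). Over the 3 pairs the log2 difference was -1.58 ± 0.53 (SE, limma adjusted p = 0.379).

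The NGPF2 difference of Sdc4 was itself not the same in the 2 sets of libraries. The log2 difference in replicates 2 and 3 minus that in pair 1 was -2.50 ± 0.28 (SE, limma adjusted p = 0.0274). Sdc4 alone among the 10 members passed that test, against 2.49% of all genes, or 1.77% in the same direction. Replicate 1 has 1 library per group, and its spread is assumed to be that of replicates 2 and 3. Without vehicle replicate 2 or 3 the difference kept its size, at -2.37 and -2.46 within replicates 2 and 3, with adjusted p = 0.125 and 0.130. The difference between the sets then had adjusted p = 0.336 and 0.348, and it also missed the threshold with no variance trend.

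Sdc2 (ENSMUSG00000022261, chr15:32920723-33034935, plus strand) is a syndecan known from dendritic spine development. Its normalized count was 1191, 623 and 745 in the NGPF2 cultures, against 1318, 1279 and 1360 in the vehicle cultures. All 3 NGPF2 libraries lay under all 3 vehicle libraries, narrowly in pair 1, and the vehicle libraries varied by little (NGPF2 mean 853 ± 299, vehicle mean 1319 ± 40.4, SD, n = 3 each). Sdc2 fell 1.93-fold with NGPF2 within replicates 2 and 3 (log2 difference -0.95 ± 0.12 SE, limma adjusted p = 0.00820). The difference over the 3 pairs was -0.68 ± 0.19 (SE, limma adjusted p = 0.379), and the difference between the sets had adjusted p = 0.117. Without vehicle replicate 2 or 3 the adjusted p within replicates 2 and 3 was 0.143 and 0.153.

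Sdc1 (ENSMUSG00000020592, chr12:8771323-8793715, plus strand), the main syndecan of epithelia, was among the lowest of the 10 genes. Its normalized count was 156, 57.4 and 34.1 in the NGPF2 cultures, against 167, 86.6 and 119 in the vehicle cultures. The NGPF2 library was the lower of each pair, but the lowest value rests on 19 reads, with a 95% Poisson interval of 20.5 to 53.3 normalized counts. The log2 difference within replicates 2 and 3 was -1.18 ± 0.34 (SE, limma adjusted p = 0.0694), with a 95% interval of -2.06 to -0.30. Scaled to library totals it passed (-1.31, adjusted p = 0.0491).

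Sdc3 (ENSMUSG00000025743, chr4:130792537-130826319, plus strand) did not pass the test in any comparison. Its normalized count was 17449, 16202 and 13830 in the NGPF2 cultures, against 16586, 15198 and 14866 in the vehicle cultures. Highest and lowest both came from the NGPF2 group, and the groups overlapped. The log2 difference within replicates 2 and 3 was -0.01 ± 0.09 (SE, limma adjusted p = 0.971), with a 95% interval of -0.24 to 0.23, so a change beyond about that size lies outside the interval. Leaving out NGPF2 replicate 3 or vehicle replicate 2 turned the sign of this small difference, and it had no set direction over the 3 pairs (log2 difference 0.02 ± 0.10 SE), where other scalings turned it.

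**Figure D3:**
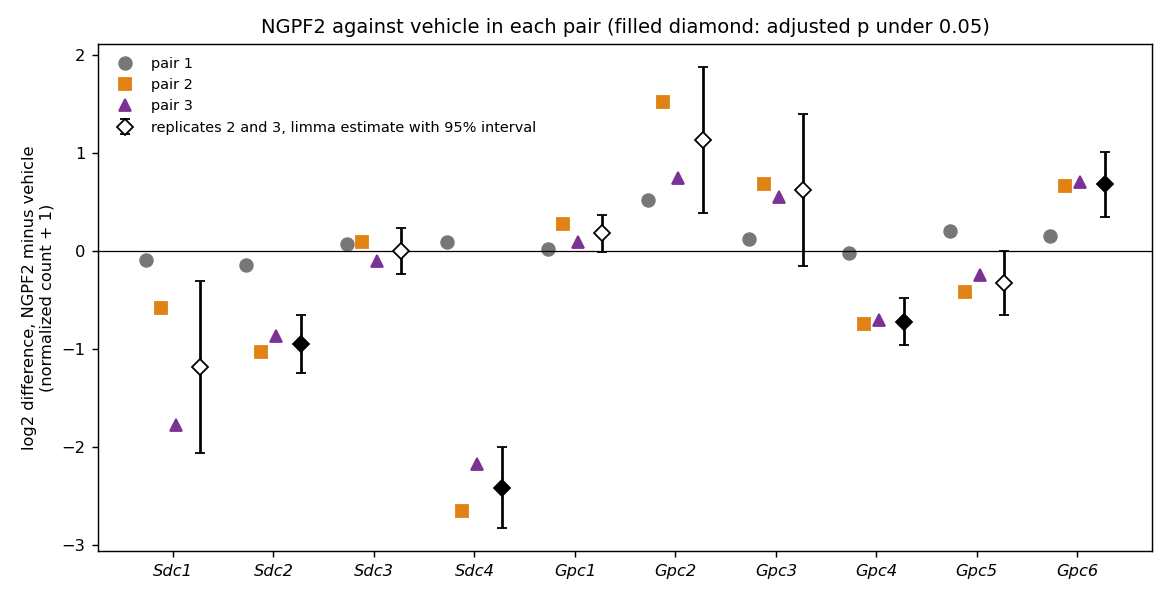
Log2 difference of NGPF2 minus vehicle for each gene in pair 1 (grey circles), pair 2 (orange squares) and pair 3 (purple triangles), with the limma estimate over replicates 2 and 3 and its 95% interval as a diamond, filled where the adjusted p is under 0.05. The grey circles sit near 0 for 9 of the 10 genes, and the 4 filled diamonds are those of Sdc2, Sdc4, Gpc4 and Gpc6.

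As shares of the summed syndecan level per kb, Sdc3 made up 84.4%, 91.3% and 88.2% in the NGPF2 cultures and 83.0%, 75.9% and 75.3% in the vehicle cultures. The share of Sdc4 was 4.59%, 2.25% and 3.34% with NGPF2, against 4.47%, 12.6% and 12.01% with vehicle. Sdc2 held 9.79%, 5.96% and 8.07% with NGPF2 and 11.2%, 10.8% and 11.7% with vehicle. These shares are computed within a library and so do not depend on how the libraries were scaled to each other. In replicates 2 and 3 the NGPF2 cultures had the higher Sdc3 share and the lower Sdc4 and Sdc2 shares, and in pair 1 the Sdc3 and Sdc4 shares were close.

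The RefSeq promoter windows of the genes that fell are shown for those the table holds. A window covers 250 bases before and 50 after the start on GRCm38.p6, and 7 of the 10 members had one (not Sdc2, Gpc1 and Gpc6). Capitals mark the GC box, GGGCGG or its reverse complement CCGCCC, the element bound by Sp1-type factors.
Sdc4, chr2:164443139-164443438, minus strand: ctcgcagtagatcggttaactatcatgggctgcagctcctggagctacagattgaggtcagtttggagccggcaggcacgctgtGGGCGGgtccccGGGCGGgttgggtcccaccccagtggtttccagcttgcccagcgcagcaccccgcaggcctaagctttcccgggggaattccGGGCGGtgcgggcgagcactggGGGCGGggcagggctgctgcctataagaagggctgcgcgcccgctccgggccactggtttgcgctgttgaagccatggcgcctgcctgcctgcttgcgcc
Gpc4, chrX:52164874-52165173, minus strand: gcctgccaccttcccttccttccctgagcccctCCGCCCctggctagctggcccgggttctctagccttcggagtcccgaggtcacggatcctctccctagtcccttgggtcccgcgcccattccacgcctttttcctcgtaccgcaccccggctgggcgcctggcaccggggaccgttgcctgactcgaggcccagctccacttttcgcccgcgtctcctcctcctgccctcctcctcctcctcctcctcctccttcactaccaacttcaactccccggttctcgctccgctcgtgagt
Sdc4 held 4 GC boxes and Gpc4 1, and all 7 windows held at least 1, against 35.66% of the 32851 windows in the table. Both windows were rich in G and C, at 67.67% for Sdc4 and 66.67% for Gpc4, against a median of 52.7% over all windows. Each had 22 CpG dinucleotides, against a median of 7. None of the 7 windows held TGAGTCA (the AP-1 site, in 5.202% of all windows), TGACGTCA (the cAMP response element, in 1.79%) or CACGTG (the E-box, in 7.15%), on either strand. TATAAA stood in the Gpc5 window alone, and in 13.62% of all windows.

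Gpc4 and Gpc6, both known as astrocyte-secreted synapse factors, moved in opposite directions within replicates 2 and 3. Gpc4 (ENSMUSG00000031119, chrX:52053021-52165252, minus strand) had 1123, 916 and 1010 normalized counts in the NGPF2 cultures, against 1143, 1532 and 1651 in the vehicle cultures. All 3 NGPF2 libraries lay under all 3 vehicle libraries, narrowly in pair 1. Gpc4 fell 1.65-fold within replicates 2 and 3 (log2 difference -0.72 ± 0.09 SE, limma adjusted p = 0.00928). It was -0.49 ± 0.17 over the 3 pairs (SE, limma adjusted p = 0.379).

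Gpc6 (ENSMUSG00000058571, chr14:116925315-117976544, plus strand) had 196, 448 and 413 normalized counts in the NGPF2 cultures, against 177, 284 and 254 in the vehicle cultures. The NGPF2 library was the higher of each pair, and replicate 1 of either group lay under every library of replicates 2 and 3. Within replicates 2 and 3 Gpc6 rose 1.60-fold (log2 difference 0.68 ± 0.13 SE, limma adjusted p = 0.0248). It was 0.50 ± 0.18 over the 3 pairs (SE, limma adjusted p = 0.379). The test of a difference between the sets gave limma adjusted p = 0.104 for Gpc4 and 0.295 for Gpc6. Without vehicle replicate 2 or 3 the adjusted p within replicates 2 and 3 was 0.142 and 0.151 for Gpc4, and 0.165 and 0.199 for Gpc6. Without NGPF2 replicate 2 it was 0.0754 for Gpc6.

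For every 100 normalized counts of Gpc4 there were 17.4, 49.0 and 40.9 of Gpc6 in the NGPF2 cultures, against 15.5, 18.5 and 15.4 in the vehicle cultures. NGPF2 replicates 2 and 3 stood apart on this ratio, and the 3 vehicle cultures and NGPF2 replicate 1 lay close together. For every 100 normalized counts of Gpc1 there were 32.4, 21.2 and 25.1 of Gpc4 with NGPF2 and 33.4, 42.8 and 43.6 with vehicle.

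Over the 3 pairs, Sdc2 and Gpc4 were the 2 members whose groups did not overlap, both lower with NGPF2. Among all genes tested 5.89% had groups that did not overlap with NGPF2 lower. In 3 members the NGPF2 library was the lower of every pair (Sdc1, Sdc2 and Gpc4), against 18.9% of all genes. In 4 it was the higher of every pair (Gpc1, Gpc2, Gpc3 and Gpc6), against 17.6% of all genes. Gpc2 shares exon bases with Gm43720 on its own strand. The sum of these 2 genes was 242, 99.2 and 86.1 with NGPF2, against 218, 124 and 115 with vehicle. For the sum, NGPF2 was thus the higher of pair 1 and the lower of pairs 2 and 3. The sign of the NGPF2 difference was the same in pairs 2 and 3 for 9 members, Sdc3 being the exception. The share of all genes with the same sign in these pairs was not computed, so this count is not read as a trait of the members.

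Astrocyte transcripts differed in the same libraries as Sdc4, Sdc2 and Gpc4, which fell there, and Gpc6, which rose. Of the 13 astrocyte markers tested, 13 fell with NGPF2 within replicates 2 and 3, with median log2 differences of 0.02 in pair 1, -2.81 in pair 2 and -2.86 in pair 3. Gfap, the astrocyte intermediate filament, had 3029, 312 and 267 normalized counts in the NGPF2 cultures, against 2914, 9219 and 9265 in the vehicle cultures. The astrocyte connexin gene Gjb6, singled out after its values were seen, was at 0 in NGPF2 replicates 2 and 3. It was low elsewhere too, with 1.92 in NGPF2 replicate 1 and 3.87, 15.2 and 22.7 in vehicle replicates 1, 2 and 3. Gjb6 was under the minimum mean and was not tested. The other 13 of the 14 listed markers were above 0 in every library. In the same comparison 8 of 11 tested microglia markers fell, and the sum of the listed markers was 2109, 267 and 285 with NGPF2, against 1973, 1209 and 1120 with vehicle. In NGPF2 replicates 2 and 3, 10 of the 13 listed microglia markers were above 0 in each library, the highest being Cd68 with 192 and 158. The listed markers Aif1 and, chosen after its values were seen, Tmem119 were at 0 in these 2 libraries. Both were also low in vehicle replicates 2 and 3, at 3.57 and 10.7 for Aif1 and 2.68 and 3.58 for Tmem119. Within replicates 2 and 3 Aif1 did not pass (limma adjusted p = 0.0775), and Tmem119 was under the minimum mean. P2ry12, another listed microglia marker, had 3.59 and 5.38 with NGPF2 there, against 4.47 and 13.1 with vehicle. The 7 markers of oligodendrocyte precursors summed to 3616, 1254 and 1298 with NGPF2 and to 3509, 7285 and 6747 with vehicle, and 3 of the 5 tested fell. Neural progenitor markers summed to 10108, 4916 and 4806 with NGPF2 and to 10176, 12839 and 13863 with vehicle, and 5 of 8 fell. Markers of excitatory neurons summed to 36702, 125028 and 114770 with NGPF2 and to 36868, 86253 and 88477 with vehicle. Camk2a alone gave 75417 of this sum in NGPF2 replicate 3 and 47771 in vehicle replicate 3. The list was mixed within replicates 2 and 3, where 4 of its 9 genes rose and 2 fell. Of 10 inhibitory neuron markers, 5 rose and 3 fell, and of 8 pan-neuronal markers, 5 rose and 0 fell. Of 9 tested oligodendrocyte markers, 0 rose and 2 fell. Of 10 tested fibroblast and mural markers, 1 rose and 4 fell, and 0 of 3 tested endothelial markers passed. Over all genes tested in that comparison, 9.77% rose and 11.3% fell. The part of these differences in those of the syndecans and glypicans was not tested.

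Gpc1 (ENSMUSG00000034220, chr1:92831645-92860779, plus strand) had 3463, 4323 and 4026 normalized counts in the NGPF2 cultures, against 3425, 3581 and 3784 in the vehicle cultures. NGPF2 replicates 2 and 3 were the highest of the 6 libraries, while replicate 1 of the 2 groups differed by little. The log2 difference within replicates 2 and 3 was 0.18 ± 0.07 (SE, limma adjusted p = 0.148), with a 95% interval of -0.01 to 0.37. Gpc1 shares 977 exon bases, 18.9% of its own, with Ankmy1 on the opposite strand. Ankmy1 reached at most 14.3 normalized counts in any library, and whether reads were counted by strand is not given in the sources used here.

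Gpc5 (ENSMUSG00000022112, chr14:115092215-116525179, plus strand) lies next to Gpc6 on chromosome 14. It had 356, 503 and 474 normalized counts in the NGPF2 cultures, against 310, 672 and 561 in the vehicle cultures. NGPF2 was the higher of pair 1 and the lower of pairs 2 and 3. The log2 difference within replicates 2 and 3 was -0.33 ± 0.13 (SE, limma adjusted p = 0.135), and the difference between the sets had adjusted p = 0.286.

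Gpc3 (ENSMUSG00000055653, chrX:52272426-52613950, minus strand), the neighbour of Gpc4 on the X chromosome and a regulator of body growth, was low in replicates 2 and 3 of both groups. Its normalized count was 273, 118 and 79.0 in the NGPF2 cultures, against 251, 73.2 and 53.7 in the vehicle cultures. The NGPF2 library was the higher of each pair, and replicate 1 of either group stood above every library of replicates 2 and 3. The log2 difference within replicates 2 and 3 was 0.62 ± 0.30 (SE, limma adjusted p = 0.210), with a 95% interval of -0.16 to 1.39 at read counts of 44 to 99.

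As shares of the summed glypican level per kb, Gpc1 made up 49.2%, 58.5% and 56.5% in the NGPF2 cultures and 50.1%, 46.2% and 47.2% in the vehicle cultures. Gpc4 held 31.1%, 24.1% and 27.6% with NGPF2, against 32.5%, 38.5% and 40.1% with vehicle. Gpc6 held 2.23%, 4.87% and 4.65% with NGPF2, against 2.08%, 2.94% and 2.55% with vehicle. Shares in replicate 1 were alike between the groups, and replicates 2 and 3 differed. The summed syndecan level per kb was 2.53, 2.07 and 1.89 times the summed glypican level in the NGPF2 cultures and 2.52, 2.23 and 2.12 times in the vehicle cultures.

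Gpc2, a glypican of developing neurons, overlaps another gene on its own strand. Gpc2 (ENSMUSG00000029510) lies on the minus strand at chr5:138273655-138280005, and Gm43720 (ENSMUSG00000106247), whose annotated transcript runs over Gpc2 and the neighbouring Gal3st4, spans chr5:138264952-138279958. The 2 genes share 2376 exon bases, which are 55.6% of the exon bases of Gpc2. Reads from the shared exons cannot be told apart, and how the counting split them is not given in the sources used here.

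Gpc2 itself had 242, 99.2 and 86.1 normalized counts in the NGPF2 cultures, against 169, 33.9 and 51.3 in the vehicle cultures. Gm43720 was listed at 0 in all 3 NGPF2 libraries and had 49.0, 90.2 and 63.2 normalized counts in the vehicle libraries. Of the 31245 genes, Gm43720 alone was at 0 in all NGPF2 libraries and at 10 or more in every vehicle library, and no gene showed the reverse. The sum of Gpc2 and Gm43720 was 242, 99.2 and 86.1 with NGPF2, against 218, 124 and 115 with vehicle, and these ranges overlapped.

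On its own, Gpc2 had a log2 difference of 1.13 ± 0.29 within replicates 2 and 3 (SE, limma adjusted p = 0.0520) and of 0.92 ± 0.28 over the 3 pairs (SE, limma adjusted p = 0.379). Within replicates 2 and 3 its adjusted p was under 0.05 with a pseudocount of 5 (0.0450), a minimum mean of 50 (0.0387), quantile normalization (0.0207) and voom on the recovered counts (0.0324), and above it in the other alternatives run. With the counts of the 2 genes summed, an alternative chosen after seeing the data, the log2 difference was -0.36 within replicates 2 and 3 (limma adjusted p = 0.239) and -0.19 over the 3 pairs (limma adjusted p = 0.664). The direction of Gpc2 alone was thus opposite to that of the sum, in which no difference passed the test. Gal3st4, the third gene of the locus, had 33.3, 0 and 0 normalized counts with NGPF2 and 0.645, 0.893 and 4.77 with vehicle.

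**Figure D4:**
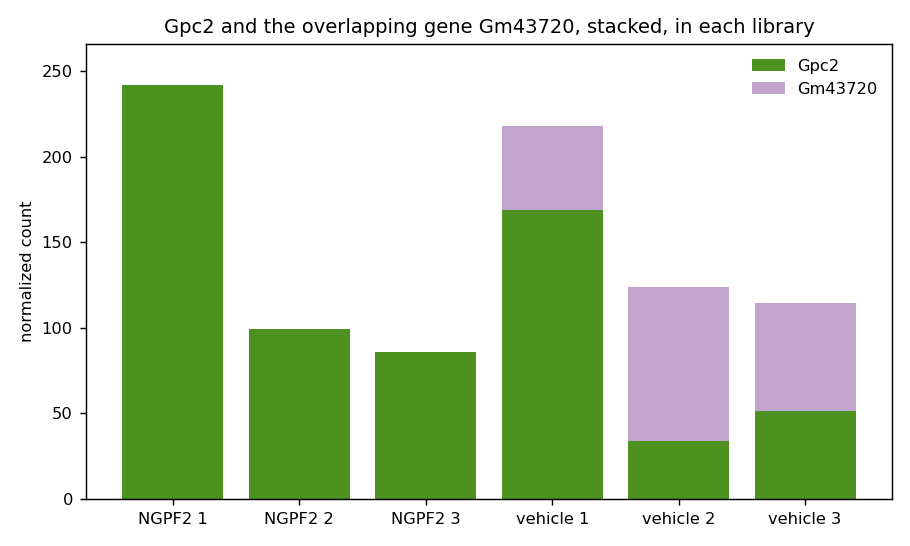
Normalized counts of Gpc2 (green) and of the overlapping gene Gm43720 (violet), stacked, in each of the 3 NGPF2 and 3 vehicle libraries, with the axis from 0. Gm43720 has no bar in any NGPF2 library, and the stacked heights run from 86.1 to 242 with NGPF2 and from 115 to 218 with vehicle.

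The 2 sets were also compared within the vehicle cultures, with the single vehicle library of replicate 1 assumed to vary like the others. Between vehicle replicates 2 and 3 and vehicle replicate 1, 5 of the 10 members passed the limma test, against 19.9% of all genes. There were 3 members higher, against 10.5% of all genes, and 2 lower, against 9.42%. Sdc4 was 2.74-fold higher in replicates 2 and 3 (log2 difference 1.45 ± 0.20 SE, adjusted p = 0.0113). Gpc5 was 1.99-fold higher (adjusted p = 0.0176) and Gpc4 1.39-fold higher (adjusted p = 0.0464). Gpc2 was 3.96-fold lower (adjusted p = 0.0177) and Gpc3 3.95-fold lower (adjusted p = 0.0205). The overlap with Gm43720 touches the Gpc2 value, since Gm43720 held 22.5%, 72.7% and 55.2% of their sum in vehicle replicates 1, 2 and 3. That sum was 218, 124 and 115, a smaller gap than that of Gpc2 alone, and it was not tested between the sets. The log2 differences of Sdc2, Sdc3 and Gpc1 were 0.00 ± 0.14, -0.14 ± 0.11 and 0.10 ± 0.09 (SE), and none passed.

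These calls depended on the libraries and settings: without vehicle replicate 2 or 3 none of the 5 calls held (limma adjusted p = 0.114 to 0.233), nor did any with no variance trend or with no filter on low values. The Gpc4 call was also lost with TMM (adjusted p = 0.0574) and library total scaling (adjusted p = 0.0625). The comparison shares vehicle replicates 2 and 3 with the NGPF2 comparison above. Sdc4 and Gpc4 in NGPF2 replicates 2 and 3 and in vehicle replicate 1 thus lay under the same 2 vehicle libraries, and Sdc2 was at about the same level in all 3 vehicle cultures. Fibroblast and mural markers also differed by set, with sums of 3953, 420 and 438 in the NGPF2 cultures and 4388, 736 and 642 in the vehicle cultures, and their part in the Gpc3 level was not tested.

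The enzymes and partners of heparan sulfate proteoglycans were followed in 6 lists, chosen with earlier results of these data known. Over the 3 pairs, 0 genes of any list passed the limma test. Within replicates 2 and 3, genes passed in each list, and the median log2 difference in pair 1 lay between -0.05 and 0.09 in all 6 lists. The counts of each list below stand against 9.77% of all genes tested higher and 11.3% lower in that comparison. Over all genes tested the medians in pairs 1, 2 and 3 were -0.0031, -0.0061 and 0.

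Of 12 genes that build the linkage region and the chain, 2 rose and 1 fell within replicates 2 and 3, against 9.77% of all genes higher and 11.3% lower. The list medians were 0.01, 0.14 and 0.08 in pairs 1, 2 and 3. Pxylp1, the xylose phosphatase that lets chain synthesis go on, had 815, 691 and 666 normalized counts with NGPF2, against 831, 306 and 305 with vehicle. Vehicle replicates 2 and 3 were the low ones, and Pxylp1 rose 2.22-fold within replicates 2 and 3 (limma adjusted p = 0.00404). Extl1, an exostosin-like glycosyltransferase, rose 1.72-fold (adjusted p = 0.0319). Xylt1, which adds the first xylose, fell 1.21-fold (adjusted p = 0.0481), and Xylt2, its paralogue, had a log2 difference of 0.34 ± 0.13 (SE, adjusted p = 0.139).

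Of 18 tested genes of chain modification, 3 rose and 3 fell. The list medians were 0.01, -0.07 and -0.26 in pairs 1, 2 and 3. Ndst3, an N-deacetylase and N-sulfotransferase, had 578, 276 and 305 normalized counts with NGPF2, against 564, 631 and 652 with vehicle, and fell 2.21-fold (limma adjusted p = 0.00521). Hs3st2, a 3-O-sulfotransferase of neurons, fell 1.88-fold (adjusted p = 0.00742). Hs3st1, which makes the same kind of modification, rose 1.79-fold (adjusted p = 0.00836), with 1577, 1424 and 1233 normalized counts with NGPF2 and 1668, 731 and 754 with vehicle. Glce, the glucuronic acid epimerase, rose 1.60-fold (adjusted p = 0.00786). None of the other 3-O-sulfotransferases tested passed.

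Of 12 tested genes of extracellular remodelling, shedding and release, 1 rose and 4 fell, and the list medians were 0.08, -0.53 and -0.84. Timp3, a metalloprotease inhibitor that binds heparan sulfate, had 904, 264 and 312 normalized counts with NGPF2, against 845, 1802 and 1534 with vehicle. It fell 5.79-fold (limma adjusted p = 0.00149). Mmp14, a membrane metalloprotease that sheds syndecan ectodomains, had 346, 62.2 and 84.4 normalized counts with NGPF2, against 273, 414 and 472 with vehicle, and fell 6.05-fold (adjusted p = 0.00308). Sulf2, which removes 6-O-sulfates outside the cell, fell 1.66-fold (adjusted p = 0.00538), and the sheddase Adam17 fell 1.99-fold (adjusted p = 0.0116). In pair 1 the NGPF2 library was the higher for all 4 genes. Mmp2, another metalloprotease, had a log2 difference of -1.74 ± 0.62 (SE, adjusted p = 0.113).

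Of the 6 other heparan sulfate proteoglycans, 1 rose and 3 fell, with list medians of 0.09, -0.67 and -0.82. Cd44 had 485, 66.9 and 48.5 normalized counts with NGPF2, against 415, 203 and 221 with vehicle, and fell 3.67-fold (limma adjusted p = 0.00810). Hspg2, which encodes perlecan of basement membranes, fell 4.89-fold (adjusted p = 0.00821), and Col18a1, a basement membrane collagen that carries heparan sulfate, fell 3.29-fold (adjusted p = 0.0105). Nrp1, a semaphorin and VEGF co-receptor, rose 1.58-fold (adjusted p = 0.0115).

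Of 18 intracellular partners and membrane receptors, 7 rose and 1 fell, with list medians of 0.08, 0.12 and 0.04. Lrrtm4, a postsynaptic adhesion protein that binds glypicans, had 418, 970 and 987 normalized counts with NGPF2, against 142, 522 and 478 with vehicle. It was the higher of each pair, the log2 gap being widest in pair 1, and rose 1.96-fold within replicates 2 and 3 (limma adjusted p = 0.00521). Prkca, the protein kinase C that syndecan-4 binds, rose 1.35-fold (adjusted p = 0.0231), and Tiam1, a Rac exchange factor that binds syndecan tails, rose 1.44-fold (adjusted p = 0.0253). Sdcbp2, which encodes syntenin-2, fell 2.10-fold (adjusted p = 0.0292). Sdcbp, whose product syntenin-1 binds the PDZ-binding end printed above, had 3239, 2892 and 3209 normalized counts with NGPF2, against 3810, 3891 and 3663 with vehicle. Its NGPF2 libraries all lay under its vehicle libraries, and its log2 difference within replicates 2 and 3 was -0.31 ± 0.08 (SE, adjusted p = 0.0566).

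Of 8 lysosomal enzymes that break heparan sulfate down, 1 rose and 4 fell, with list medians of -0.05, -0.73 and -0.62. Gusb, the beta-glucuronidase, had 296, 82.5 and 80.8 normalized counts with NGPF2, against 305, 244 and 228 with vehicle, and fell 2.89-fold (limma adjusted p = 0.00607). Sgsh, a sulfamidase, fell 1.86-fold (adjusted p = 0.0199), and Idua, the iduronidase, fell 2.08-fold (adjusted p = 0.0429). Hgsnat, an acetyltransferase of the lysosomal membrane, rose 1.27-fold (adjusted p = 0.0317). The astrocyte and microglia marker sums given above were lower with NGPF2 in replicates 2 and 3, as were the 4 genes that fell. Hgsnat went the other way, and Ids, the most abundant of the list, had a log2 difference of 0.01 ± 0.06 (SE). The part of the marker differences was not tested.

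**Figure D5:**
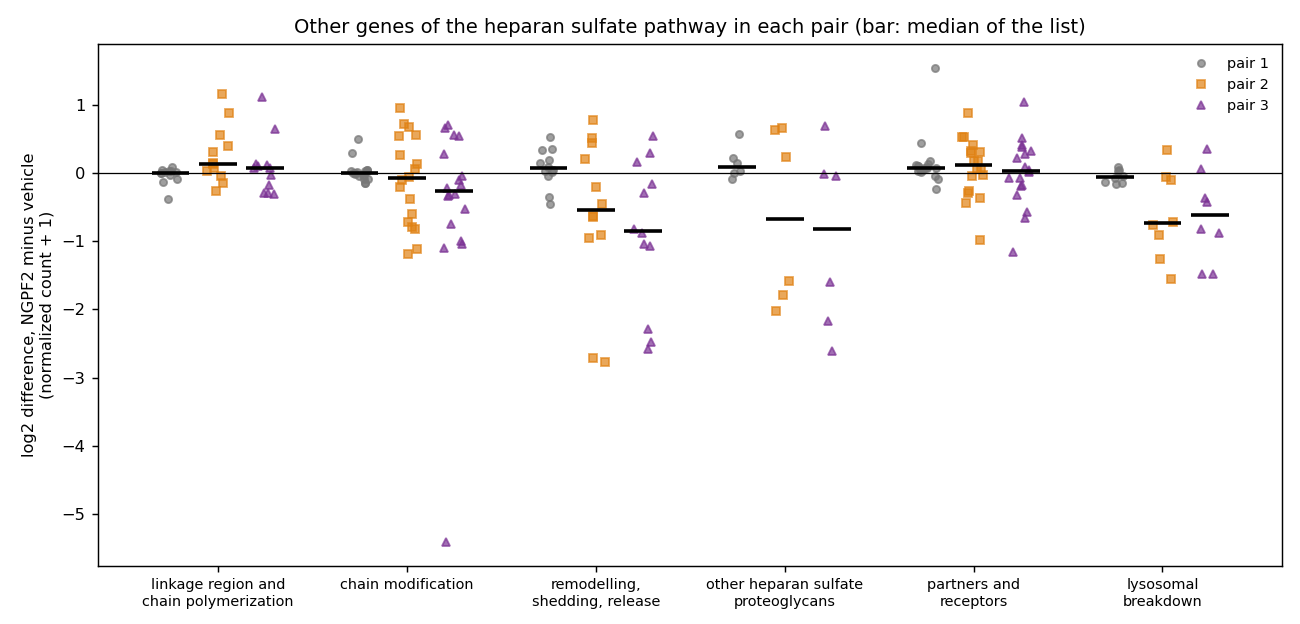
Log2 difference of NGPF2 minus vehicle for each tested gene of 6 lists of the heparan sulfate pathway, in pair 1 (grey), pair 2 (orange) and pair 3 (purple), with a black bar at the list median. The pair 1 medians lie between -0.05 and 0.09, and the pair 2 and 3 medians of the remodelling, other proteoglycan and lysosomal lists lie between -0.53 and -0.84.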

How the data were processed

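Poly(A) RNA of 6 cortical cultures was sequenced, and mm10, STAR 2.5, DESeq 1.22.1, Cuffnorm and FastQC appear in the submitters' processing notes. Neither counter nor annotation nor strandedness is stated there. The deposited table carries FPKM in its name, yet the authors' values were found to be log2-transformed normalized counts with 1 added. Converted back, they were whole multiples of a single step in each library (100% of values within 0.01), which gave the reads as counts. The column names of replicate 1 were matched by elimination and initial.

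Linear models with a variance trend (limma 3.58.1, R 4.3.3) were fitted to the deposited log2 values of 16653 genes, those averaging 10 normalized counts or more. Tests were 2-sided, with Benjamini-Hochberg adjustment over all of them at 0.05. The fits over the 3 pairs and within replicates 2 and 3 were also run on simulated counts. That simulation held no difference between the sets of libraries and did not cover the comparisons between sets. The fit over the 3 pairs had the pair as a block. Same-numbered libraries deviated together from their group means (r = 0.594, 0.299 and 0.333). However, NGPF2 replicate 2 with vehicle replicate 3 gave 0.320 and NGPF2 replicate 3 with vehicle replicate 2 gave 0.342. The fit within replicates 2 and 3 had no block. Where cultures of a group were not separate, p-values measure the spread between these libraries only. Symbols came from GENCODE M21 for 31185 of 31245 IDs, and levels per kb use its merged exons.

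All 10 members are named. From each pathway list the text names up to 4 genes of smallest p within replicates 2 and 3 and up to 2 over the 3 pairs, and otherwise markers. The members and lists were chosen with earlier results of these data known. The alternatives were other pseudocounts, filters, scalings and blocks, no variance trend, voom, and leaving out each library.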

Additional observations from a re-analysis of the deposited data

Results flagged for a closer look

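Among the 10 members and the named pathway genes, the NGPF2 difference of 4 was not the same in replicates 2 and 3 as in pair 1 by limma's test of the difference itself, which assumes that the single libraries of pair 1 vary like the others. Over all 16653 genes, 415 (2.49%) passed the same test. The named pathway genes were picked by small p, mostly within replicates 2 and 3, whose difference enters this test. The 4 are therefore not to be set against that share. Of the full lists, 1 of 12 linkage and chain genes and 2 of 12 tested remodelling genes passed, and no gene of the others. Sdc4 had a log2 difference of differences of -2.50 (adjusted p = 0.0274), with NGPF2 lower in 2 of the 3 pairs. Timp3 had -2.63 (adjusted p = 0.0185) and Mmp14 -2.93 (adjusted p = 0.0288), each again lower in 2 of the 3 pairs. Pxylp1 had 1.17 (adjusted p = 0.0416), with NGPF2 higher in 2 of the 3 pairs. In the same test 10 of the 13 tested astrocyte markers passed, and their part was not tested.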

How the results depend on the processing

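Over the 3 pairs, 0 genes passed in limma, against 1 with a pseudocount of 5, 1 with no replicate block and 1 with the library-name set as block, a choice made after seeing the data. Leaving out a replicate gave 0 to 3275 genes and 0 to 4 members, the upper values without replicate 1. Within replicates 2 and 3 the replicate block gave 4 members and 3275 genes. No filter on low values gave 1074 genes and 1 member, no variance trend gave 1535 genes, and leaving out a library gave 0 to 3206 genes and 0 to 4 members. Without vehicle replicate 2 or vehicle replicate 3 the counts were 0, with fewer libraries in the fit.

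For the difference between the sets, 4684 genes passed with no filter, 733 with a minimum mean of 50, 22 with no variance trend and 1368 with voom. Members numbered 0 with no variance trend, 3 with voom and 0 to 1 with a library left out, when genes numbered 0 to 412. The replicate block gave 526 genes and the same single member, Sdc4. Between vehicle sets, 1232 genes passed with no variance trend, 4999 with voom and 0 to 1 with a library left out. Members numbered 0 in the last case, with no filter and with no variance trend.

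Sdc3 changed sign over the 3 pairs with TMM (-0.0104), quantile (-0.094) and library total scaling (-0.065), and ranged from -0.016 to 0.083 with a replicate left out (-0.0059 without replicate 1). It did so within replicates 2 and 3 with NGPF2 replicate 3 (0.11) or vehicle replicate 2 (0.010) left out, in a range of -0.12 to 0.11, and between the sets without NGPF2 replicate 3 (0.035). Sdc2 changed sign between vehicle sets with TMM (-0.033), library totals (-0.015) and voom (-0.0020), and without vehicle replicate 3 (-0.043), with 0.045 without vehicle replicate 2. Gpc2 summed with Gm43720 gave -0.19 over the 3 pairs and -0.36 within replicates 2 and 3. The cause was not tested. With the longest transcript as gene length, Sdc3 averaged 3155, Gpc1 902, Gpc3 63.8, Gpc5 169 and Gpc6 71.2 normalized counts per kb. The 19 to 100 reads behind Sdc1, Gpc2 and Gpc3 in replicates 2 and 3 limit what can be seen of them.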

Other observations

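Genes at large also differed more between the groups in pairs 2 and 3. Over all 16653 genes the SD of the log2 differences was 0.431, 0.922 and 0.971 in pairs 1, 2 and 3, and 405, 2564 and 2650 genes differed more than 2-fold.

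In the chain modification list a single value stands far from the rest in the plot by pair, and it was chosen after its value was seen. Hs3st3b1, a 3-O-sulfotransferase, was listed at 0 in NGPF2 replicate 3, against 41.7 normalized counts in vehicle replicate 3. In the other 2 pairs it had 32.6 and 22.7 normalized counts with NGPF2, against 22.6 and 34.8 with vehicle.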
